A study of Bos taurus with 12 samples.

Results

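Transcript abundance of 6 genes of fatty acid binding, uptake and breakdown, FABP3, FABP4, FABP5, LPL, CD36 and ACAA2, was examined in bovine endometrium. The genes were chosen by name, with earlier results of these data known. Every probe set that the platform annotation assigned to one of them alone was kept. This gave 8 probe sets of 24016 tested and 6 genes of 9155 named on the array. Their Entrez gene identifiers were 281758 for FABP3, 281759 for FABP4, 281760 for FABP5, 280843 for LPL, 281052 for CD36 and 522006 for ACAA2. FABP4 and FABP5 each had a lead probe set, the one of higher mean signal, and a second one, and the other genes had 1. All 6 symbols were found in the RefSeq gene table of assembly ARS-UCD2.0, in which FABP4 lies between FABP9 and FABP12, FABP5 between PAG1 and PMP2, and ACAA2 between LIPG and MYO5B.

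The samples were 12 pools of endometrial RNA from Simmental heifers, each on 1 Affymetrix bovine array, in 4 groups of 3 pools. The groups were receptive and non-receptive endometrium, each at day 3 and at day 7 of the estrous cycle. Receptivity was assigned from pregnancy success after transfer of embryos produced in vivo, and no treatment is named in the labels. The labels give neither the number of animals in a pool, nor their age, nor whether pools of a group came from separate animals, so that p-values measure the spread between pools, which may be technical in part.

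Fatty acids reach cells mainly as lipoprotein triglyceride or bound to albumin. Lipoprotein lipase releases them from triglyceride at the capillary wall, CD36 helps to move them across the plasma membrane, and fatty acid binding proteins carry them through the cytosol to membranes, lipid droplets, mitochondria and the nucleus. In mitochondria they are shortened by beta-oxidation, and in the uterus lipids are also part of the secretions that feed the embryo before it attaches.

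Abundance is given as the deposited log2 signal of a probe set, on which 1 unit is a factor of 2. Levels of different probe sets were not compared, because probes differ in how strongly they bind. Array medians lay between 6.64 and 6.76, and each array listed 257 to 450 probe sets at 0. The gap between the 3' and 5' probe sets of the actin control, a measure of RNA integrity, was 0.48 to 0.93 in non-receptive and 1.05 to 3.11 in receptive pools of day 3, and 0.02 to 0.63 in non-receptive and 0.82 to 1.25 in receptive pools of day 7. It was thus wider in every receptive pool than in every non-receptive pool of the same day. The like gap of the GAPDH control overlapped between receptivity groups on both days. It was 0.66 to 0.82 in non-receptive and 0.53 to 1.04 in receptive pools of day 3, and 0.62 to 0.72 and 0.37 to 0.96 on day 7. The 7 measured markers of simple epithelium had a mean log2 signal per pool of 10.82 to 11.38. None of them passed for day, 4 had a positive change and the median change was 0.12, with EPCAM at 13.10 on day 3 and 12.92 on day 7 and KRT18 at 11.26 and 11.63. With day, 3 of 6 neutrophil markers rose and none fell (median change 0.92), and 2 of 8 stromal markers fell and none rose (median -0.98). Over all probe sets 4.76% rose and 9.44% fell, with a median of -0.05. In these counts and those below, rose and fell mean a limma adjusted p under 0.05 with that sign. The part of these cell types in the changes of the members was not tested. No gene of any marker list passed between receptivity groups.

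Across the cycle, 3 of the 6 genes rose from day 3 to day 7 when both receptivity groups were averaged: FABP3 by 7.13-fold, FABP5 by 1.88-fold and 1.82-fold on its probe sets, and ACAA2 by 1.39-fold. These were 4 of the 8 probe sets, all more abundant on day 7, whereas 14.2% of all probe sets passed in either direction and 4.76% passed with a higher level on day 7 (limma, adjusted p under 0.05). LPL, CD36 and FABP4 did not pass. The median change of the 8 probe sets was 0.67, beside -0.05 over all probe sets. As the genes were chosen with earlier results of these data known, these contrasts with all probe sets only describe the members. No member separated all 6 pools of day 7 from all 6 of day 3, which 7.72% of all probe sets did.

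FABP3, the binding protein typical of heart and muscle, had signals of 7.14, 7.02 and 7.39 in the non-receptive pools of day 3 and 10.14, 8.39 and 8.45 in the receptive pools of day 3. On day 7 it reached 10.48, 10.02 and 12.90 in non-receptive and 10.66, 10.30 and 11.17 in receptive pools. All day 3 pools but pool 1 of the receptive group lay below every pool of day 7, and that pool, at 10.14, lay above the lowest pool of day 7. The mean rose from 8.09 ± 1.18 (SD, n = 6) to 10.92 ± 1.04 (SD, n = 6), and the log2 change was 2.83 (SE 0.50, 95% confidence interval 1.73 to 3.94, limma adjusted p = 0.00735). That day 3 pool also had the widest actin gap of all 12 arrays, 3.11, while its GAPDH gap was 0.74. Without that pool the log2 change was 3.12 (limma adjusted p = 0.00896). None of 8 muscle markers passed for day, and their mean log2 signal per pool lay between 4.94 and 5.68.

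**Figure D1:**
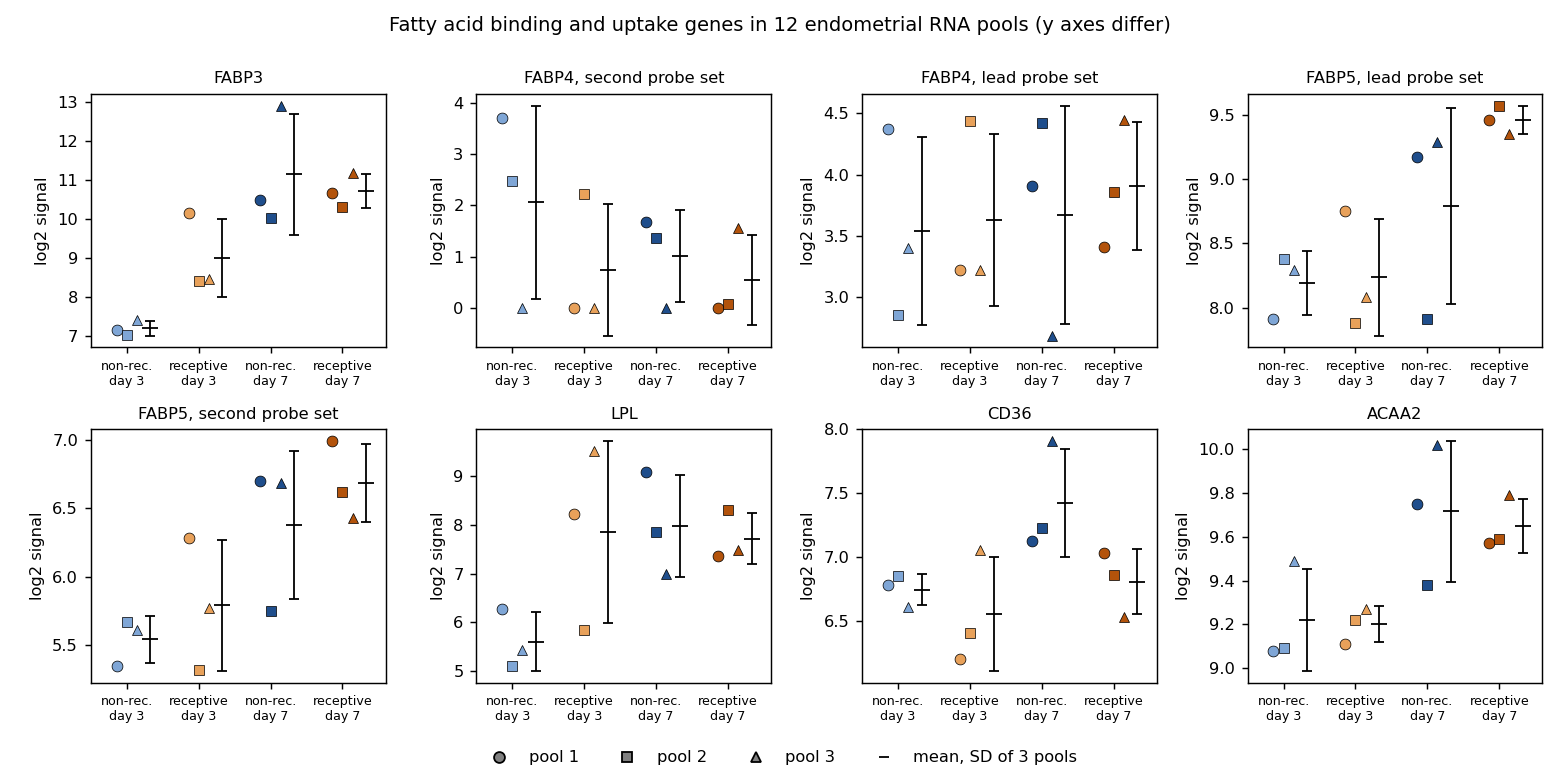
Log2 signal of each of the 8 probe sets in the 12 pools (points), by day and receptivity, with the mean and SD of each group of 3 pools. FABP3 lies between 7.02 and 7.39 in the non-receptive pools of day 3 and at 10.02 or above in every pool of day 7.

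FABP5, the epidermal binding protein, was measured by a pair of probe sets that followed each other across the 12 pools (Pearson r 0.94, and 0.91 after removing group means, as a description over pools that share arrays). On the lead probe set, signals were 7.91, 8.38 and 8.29 in non-receptive and 8.75, 7.88 and 8.08 in receptive pools of day 3, and 9.17, 7.91 and 9.29 in non-receptive and 9.46, 9.57 and 9.35 in receptive pools of day 7. All receptive pools of day 7 were above every pool of day 3, while pool 2 of the non-receptive group of day 7 lay within the day 3 values. The log2 change was 0.91 (SE 0.25, 95% confidence interval 0.36 to 1.46, limma adjusted p = 0.0374). On the second probe set, signals ran from 5.32 to 6.28 on day 3 and from 5.75 to 6.99 on day 7, with a log2 change of 0.86 (SE 0.21, 95% confidence interval 0.38 to 1.34, limma adjusted p = 0.0271).

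The FABP5 calls were close to the threshold. The lead probe set passed in 2 of 12 fits that each left out 1 pool, namely those without pool 1 of the receptive group of day 3 or pool 2 of the non-receptive group of day 7, and its adjusted p reached 0.0900 in the others. The second one passed in 6 of 12, and was lost without pool 1 of the non-receptive or pools 2 or 3 of the receptive group of day 3, and without pools 1 or 3 of the non-receptive or pool 1 of the receptive group of day 7 (highest adjusted p 0.0695). Keratins of squamous epithelium, a tissue in which FABP5 is abundant, moved with day. Of 8 listed markers 4 were measured (KRT5, KRT14, KRT15 and KRT17), and all 4 rose, beside 4.76% of all probe sets. KRT6A, TP63, DSG3 and SPRR1A were not measured. The mean log2 signals of these keratins per pool were 5.47 to 6.18 on day 3 and 6.74 to 8.69 on day 7, and none was at 0. Their part in the FABP5 change was not tested, and in bulk RNA fewer cells of a type and less RNA per cell cannot be told apart.

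ACAA2, the thiolase of the last step of mitochondrial beta-oxidation, had signals of 9.08, 9.09 and 9.49 in non-receptive and 9.11, 9.22 and 9.27 in receptive pools of day 3. On day 7 they were 9.75, 9.38 and 10.02 in non-receptive and 9.57, 9.59 and 9.79 in receptive pools. Only pool 3 of the non-receptive group of day 3 and pool 2 of that of day 7 overlapped between the days. The mean rose from 9.21 ± 0.16 to 9.68 ± 0.22 (SD, n = 6 each), and the log2 change was 0.47 (SE 0.12, 95% confidence interval 0.20 to 0.75, limma adjusted p = 0.0317). The call was kept in 3 of 12 fits without 1 pool and lost without pools 1 or 2 of the non-receptive group or any pool of the receptive group of day 3, pools 1 or 3 of the non-receptive group of day 7, or pools 2 or 3 of the receptive group of day 7 (highest adjusted p 0.0797).

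LPL, the lipase that frees fatty acids from lipoproteins, varied most between pools of a group among the members never listed at 0 (within-group SD 1.14, beside a median of 0.251 over all probe sets). Its signals on day 3 were 6.28, 5.10 and 5.44 in non-receptive and 8.23, 5.84 and 9.51 in receptive pools, and on day 7 they were 9.08, 7.86 and 6.99 in non-receptive and 7.36, 8.31 and 7.49 in receptive pools. The highest of the 12 values was in a receptive pool of day 3. The averaged log2 change was 1.12 (SE 0.60, 95% confidence interval -0.21 to 2.44, limma adjusted p = 0.239), and it was 0.61 without pool 2 of the receptive group of day 3.

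CD36, the fatty acid translocase and scavenger receptor of endothelium, macrophages and adipocytes, had signals of 6.78, 6.85 and 6.61 in non-receptive and 6.20, 6.41 and 7.06 in receptive pools of day 3. On day 7 they were 7.13, 7.23 and 7.91 in non-receptive and 7.03, 6.86 and 6.53 in receptive pools. The days overlapped, and the log2 change of 0.46 (95% confidence interval 0.05 to 0.88) did not pass (limma adjusted p = 0.122), and it was 0.29 with array weights. Of 7 measured endothelial markers, 3 passed with a lower level on day 7 (CDH5, TEK and EMCN). PECAM1 (6.14 to 5.63) and KDR (5.225 to 5.185) were also lower but did not pass. The other way, 2 had a positive change that did not pass, VWF (3.10 to 3.43) and TIE1 (4.55 to 4.93). The mean log2 signal of these markers per pool was 5.42 to 6.003 on day 3 and 4.93 to 5.60 on day 7. Of 6 macrophage markers CD68 alone passed, with a higher level on day 7. The macrophage means per pool were 6.63 to 7.03 on day 3 and 6.47 to 7.93 on day 7, with ITGAM at 0 in 1 pool. The part of either cell type in the CD36 and LPL values was not tested.

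FABP4, the adipocyte binding protein, had signals near the floor. Its second probe set was listed at 0 in 5 of 12 pools and reached 3.70, so that no fold is given for it. The lead ran from 2.68 to 4.45, with group means of 3.54 ± 0.77 and 3.63 ± 0.70 in non-receptive and receptive pools of day 3 and 3.67 ± 0.89 and 3.91 ± 0.52 on day 7 (SD, n = 3 each). All groups overlapped, and its log2 change of 0.21 had a 95% confidence interval of -0.66 to 1.07 (limma adjusted p = 0.765). Of 6 adipocyte markers CIDEC alone passed and fell, with signals near the floor (0.40 to 4.32). None of the 6 was at 0, and their mean log2 signal per pool lay between 4.42 and 4.90. ADIPOQ and LEP had means of 3.01 and 3.12 on day 3 and 3.23 and 3.52 on day 7. On day 3 and day 7, RETN had 3.50 and 3.52, LIPE 6.25 and 6.24, and CFD 8.13 and 8.36. The part of this cell type in the FABP4 values was not tested. The liver, intestinal, ileal and brain binding proteins FABP1, FABP2, FABP6 and FABP7 had signals between 1.62 and 5.92 in all pools, and none passed for day (limma adjusted p from 0.121 to 0.853).

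**Figure D2:**
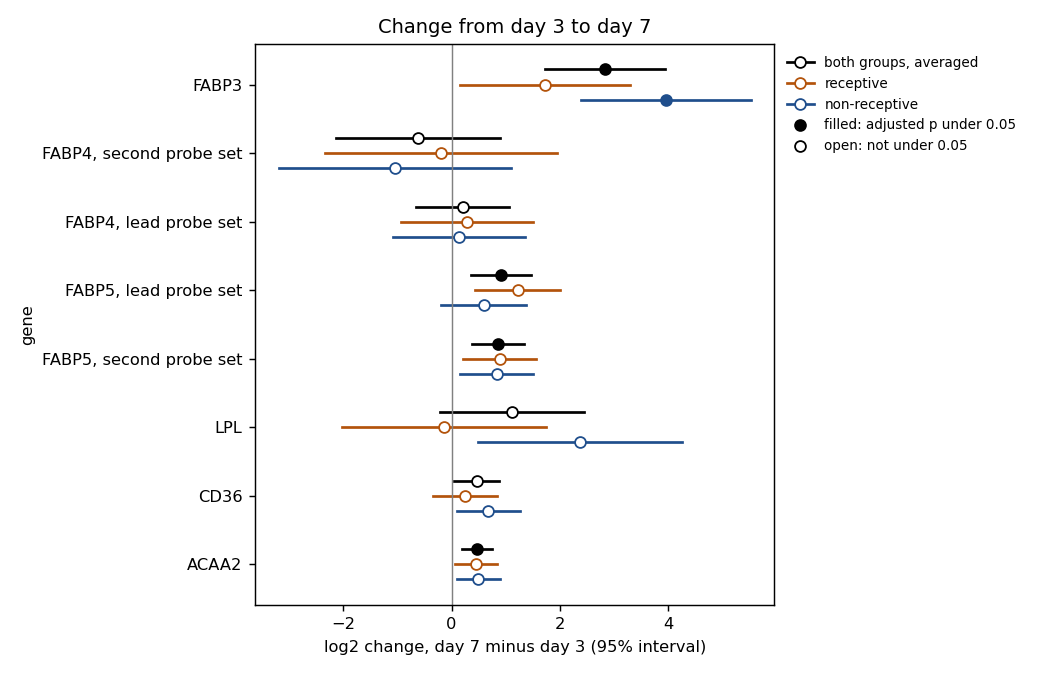
Log2 change from day 3 to day 7 of each probe set with its 95% confidence interval, averaged over both receptivity groups and within each group. The averaged changes of FABP3, both FABP5 probe sets and ACAA2 passed the test.

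Within the non-receptive group alone, FABP3 rose by 3.95 log2 units (SE 0.70, 95% confidence interval 2.38 to 5.52, 15.5-fold, limma adjusted p = 0.0262) and was the only member of 8 probe sets to pass, beside 2.48% of all probe sets. The call was lost without pool 1 or 2 of the non-receptive group of day 3 (adjusted p = 0.115 and 0.0933), without pool 1 of that of day 7 (adjusted p = 0.0704), and when only these 6 pools were fitted (adjusted p = 0.105). LPL had a log2 change of 2.37 (95% confidence interval 0.49 to 4.25, limma adjusted p = 0.155), and each of its day 7 pools exceeded every day 3 pool. In 4 of 8 probe sets (FABP3, the second FABP5 probe set, LPL and CD36) the day 7 pools lay above all day 3 pools, as in 10.3% of all probe sets.

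Within the receptive group, none of the 8 probe sets passed with limma, beside 1.96% of all probe sets, and 4 of 8 had an unadjusted p under 0.05, beside 20.4%. The log2 change of FABP3 was 1.72 (95% confidence interval 0.15 to 3.28, limma adjusted p = 0.208) and that of the lead FABP5 probe set was 1.22 (95% confidence interval 0.44 to 2.01, limma adjusted p = 0.0953). LPL had a log2 change of -0.14 (95% confidence interval -2.02 to 1.74). FABP3, both FABP5 probe sets and ACAA2 had day 7 pools above all day 3 pools, 4 of 8 probe sets beside 8.72% of all. Without pool 2 of the non-receptive group of day 7, which enters through the shared spread, the lead FABP5 probe set passed (adjusted p = 0.0350).

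Whether the change from day 3 to day 7 differed by receptivity was then tested directly. No member and none of the 24016 probe sets passed with limma. FABP3 was the 1 of 8 probe sets with an unadjusted p under 0.05, beside 3.39% of all, with a receptive minus non-receptive difference of -2.23 log2 units (95% confidence interval -4.45 to -0.02, limma adjusted p = 0.999). For LPL the difference was -2.51 (95% confidence interval -5.17 to 0.15, limma adjusted p = 0.999). The difference of FABP3 was -1.66 without pool 1 of the receptive group of day 3 and -1.35 without pool 3 of the non-receptive group of day 7.

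Receptive and non-receptive endometrium were compared to ask whether the genes differed by pregnancy outcome before transfer. Averaged over both days, none of the 8 probe sets passed with limma or had an unadjusted p under 0.05, while 0.00416% and 7.38% of all probe sets did. The intervals of the receptive minus non-receptive difference were wide for FABP3 (0.69 log2 units, 95% confidence interval -0.41 to 1.80) and LPL (0.998, -0.33 to 2.33) and narrow for ACAA2 (-0.04, -0.32 to 0.23). The difference of FABP3 was 0.41 without pool 1 of the receptive group of day 3, 0.415 without pool 2 and 1.14 without pool 3 of the non-receptive group of day 7. That of LPL was 0.59 without pool 3 and 1.503 without pool 2 of the receptive group of day 3. For CD36 the difference was -0.40 (95% confidence interval -0.82 to 0.01, limma adjusted p = 0.673), and it was -0.24 with array weights.

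On day 3, none of the 8 probe sets passed with limma, beside 0.0125% of all, and 2 had an unadjusted p under 0.05, beside 5.26%. FABP3 had means of 8.99 ± 0.99 in receptive and 7.18 ± 0.19 in non-receptive pools (SD, n = 3 each). All receptive pools were above all non-receptive pools for this gene, the 1 of 8 probe sets without overlap, beside 10.8% of all. Its difference was 1.81 (95% confidence interval 0.24 to 3.38, limma adjusted p = 0.936), and 1.24 without pool 1 of the receptive group. LPL had means of 7.86 ± 1.86 and 5.61 ± 0.61, which overlapped, and a difference of 2.25 (95% confidence interval 0.37 to 4.13, limma adjusted p = 0.936), or 1.43 without pool 3 of the receptive group. The actin gap was wider in the receptive pools, while the GAPDH gap overlapped between the groups. The part of RNA integrity in these differences was not tested.

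On day 7, none of the 8 probe sets passed with limma, nor did any of the 24016, and 1 of 8 had an unadjusted p under 0.05, beside 5.81% of all. CD36 was lower in every receptive pool than in every non-receptive pool, with means of 6.81 ± 0.25 and 7.42 ± 0.42 (SD, n = 3 each) and a difference of -0.62 (95% confidence interval -1.20 to -0.03, limma adjusted p = 0.821). The difference was -0.37 without pool 3 of the non-receptive group. The lead FABP5 probe set was higher in every receptive pool, by 0.67 (95% confidence interval -0.11 to 1.45, limma adjusted p = 0.821), and by 0.23 without pool 2 of the non-receptive group. These were 2 of 8 probe sets without overlap, beside 9.23% of all. FABP3 had means of 10.71 ± 0.44 and 11.13 ± 1.55 and overlapped. On day 7 too the actin gap was wider in every receptive pool, while the GAPDH gap overlapped between the groups. The part of RNA integrity in the day 7 differences was not tested.

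**Figure D3:**
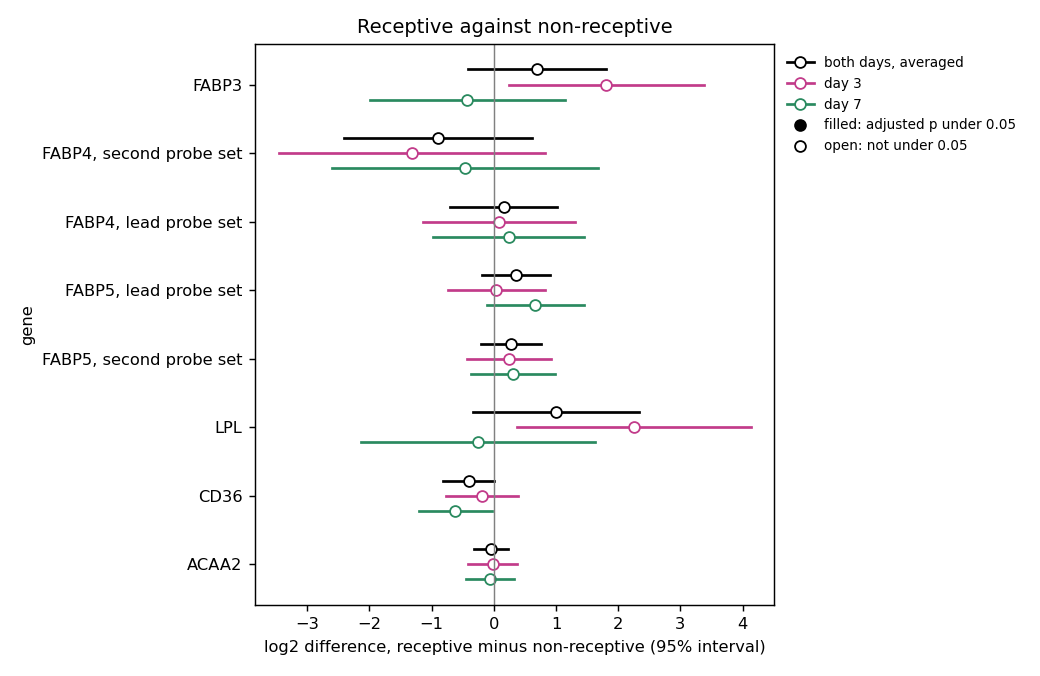
Receptive minus non-receptive difference in log2 signal of each probe set with its 95% confidence interval, averaged over both days and for each day alone. No difference passed the test, and the intervals of FABP3, LPL and the second FABP4 probe set are the widest.

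**Figure D4:**
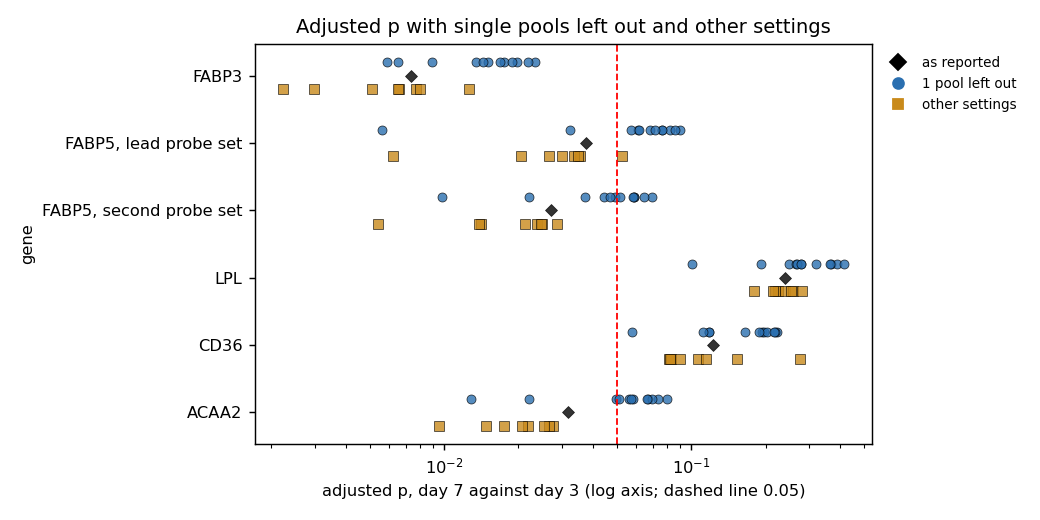
Adjusted p (log axis) of the averaged change from day 3 to day 7 for the members without FABP4, as reported (diamonds), with each of the 12 pools left out in turn (circles) and under other settings (squares), with a dashed line at 0.05. FABP3 stayed below the line in all 12 fits without 1 pool (highest adjusted p 0.0233), and each other probe set in 6 or fewer.

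The genes whose signal followed each member most closely over the 12 pools were named by Pearson r, with no test, since all points share arrays and the day. For FABP3 they were ATP5F1D, a subunit of mitochondrial ATP synthase (r 0.974), TMEM125 (0.959) and VPS29, a retromer subunit (0.949). For the lead FABP5 probe set they were CHCHD5 (0.946), the Mediator subunit MED10 (0.937) and the proteasome subunit PSMA1 (0.934). For LPL they were the acid phosphatase ACP5 (0.943), the mitochondrial sulfurtransferase TST (0.921) and FAM118A (0.916), and for CD36 the macrophage glycoprotein GPNMB (0.897), CTTNBP2NL (0.885) and EXO5 (0.869). For ACAA2 they were the intraflagellar transport gene IFT20 (0.937), NATD1 (0.932) and the riboflavin transporter SLC52A3 (0.929), and for the lead FABP4 probe set FAM3A (0.882), LLGL1 (0.858) and CLIC5 (0.825). Among the members, FABP3 and ACAA2 had r 0.80 and FABP3 and LPL r 0.49, which became 0.57 and -0.22 after removing group means.

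Other genes of fatty acid handling were counted from 6 lists, with 91 of 111 genes measured. Averaged over receptivity, 13 of 91 passed for day, or 14.3% beside 14.2% of all probe sets. Of these, 9 rose and 4 fell, 9.9% and 4.4% beside 4.76% and 9.44% of all, and the median change was 0.12 beside -0.05. The total was therefore near the share over all probe sets. The sets are not alike, since each listed gene took its probe set of highest mean signal. All probe sets include 10638 without a symbol. The same shares of all probe sets, 4.76% that rose and 9.44% that fell, stand beside the counts of each list below. None of the 91 passed in any comparison of receptivity.

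In the list of activation and mitochondrial beta-oxidation, 3 of 21 measured genes rose and none fell, beside 4.76% and 9.44% of all probe sets. A positive change was seen in 19, with a median of 0.16 beside -0.05 over all probe sets. ACSL6, which activates long-chain fatty acids, rose from 4.07 ± 0.38 to 6.04 ± 0.80 (SD, n = 6 each), by 1.97 (limma adjusted p = 0.00838). ETFA, which takes electrons from acyl-CoA dehydrogenases, rose from 8.64 to 8.98 (adjusted p = 0.0161), and the enoyl-CoA isomerase ECI1 rose from 8.04 to 8.48 (adjusted p = 0.0217). In the list of peroxisomal beta-oxidation, 1 of 7 passed, the carnitine acetyltransferase CRAT, which rose from 7.14 to 7.99 (adjusted p = 0.00594).

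In the list of uptake, lipoprotein handling and binding, 2 of 20 rose and 1 fell (median 0.03). The acyl-CoA binding domain protein ACBD3 rose from 9.45 to 9.84 (adjusted p = 0.00887), with a like change of 0.39 on its other probe set. The lipoprotein receptor SCARB1 fell from 8.50 to 7.64 (adjusted p = 0.0398). Caveolin CAV1 rose by 0.54 (adjusted p = 0.0489), but its other probe set had -0.43 (adjusted p = 0.471).

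In the list of lipid droplets and lipolysis, 2 of 15 rose and 1 fell (median 0.21). ABHD5, the activator of adipose triglyceride lipase, rose from 4.36 to 5.11 (adjusted p = 0.0219), and that lipase, PNPLA2, rose from 8.19 to 8.54 (adjusted p = 0.0471). The droplet protein CIDEC fell from 3.92 to 2.46 (adjusted p = 0.0207), with signals near the floor (lowest 0.40). DGAT2, which makes triglyceride, had 5.54 ± 3.22 on day 3 and 9.34 ± 1.49 on day 7 (SD, n = 6 each) and did not pass (adjusted p = 0.100).

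In the list of synthesis, elongation and desaturation, 0 of 15 rose and 1 fell, the elongase ELOVL7, from 9.42 to 7.86 (limma adjusted p = 0.0024). Among 13 nuclear receptors and regulators, RXRA, the partner of the lipid-sensing receptors, rose from 7.38 to 7.96 (adjusted p = 0.0267). The oxysterol receptor NR1H3 fell from 7.36 to 6.98 (adjusted p = 0.0256), but its other probe set had -0.12 (adjusted p = 0.756). Between receptivity groups none of the 15 genes of synthesis passed with limma. Their median receptive minus non-receptive difference over both days was 0.19, beside -0.012 over all probe sets, and that of the acetyl-CoA carboxylase ACACA was 0.42 (limma adjusted p = 0.646).

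**Figure D5:**
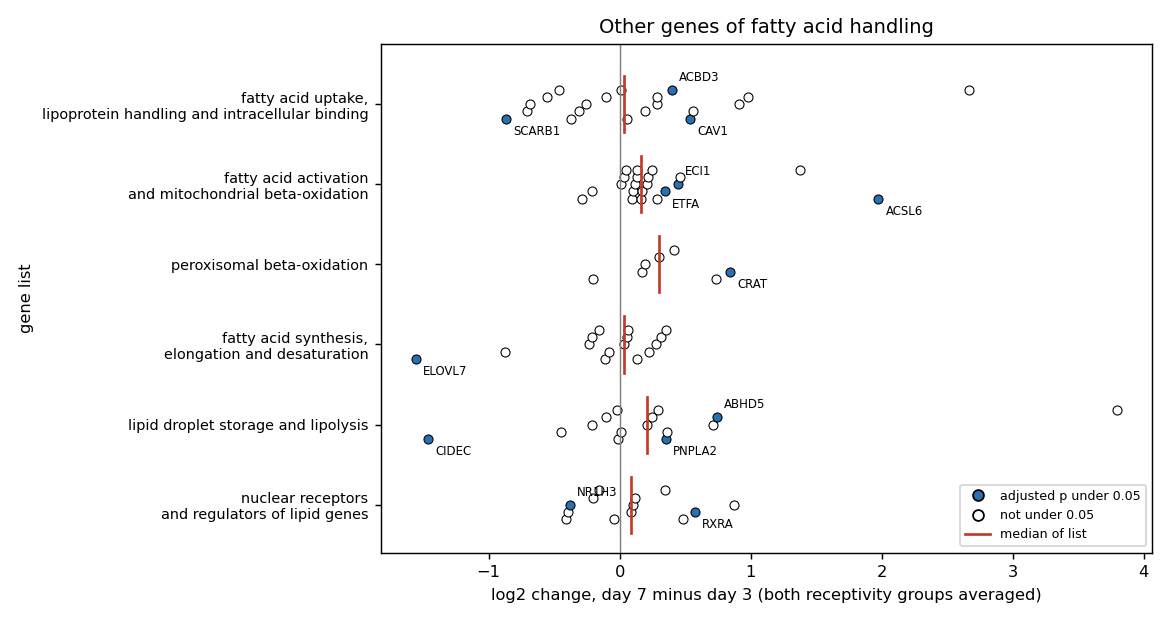
Averaged log2 change from day 3 to day 7 of the 91 measured genes of 6 lists of fatty acid handling (points), with the genes that passed filled and named and the median of each list as a red line. The list medians lie between 0.03 and 0.30, and 9 genes that passed lie above 0 and 4 below.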

How the data were processed

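The authors deposited 1 table of log2 signals for 24128 probe sets on 12 arrays. GCOS 1.1.1, Affymetrix Expression Console and PLIER are named in the submitters' processing notes, and how arrays were scaled was not given in the sources used here. Values lay between 0, a floor, and 14.06. RNA was isolated with TRI Reagent and labelled with biotin, 1 pool per array.

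After 112 control probe sets were left out, 24016 were fitted as deposited in limma 3.58.1 (R 4.3.3, lmFit and eBayes) with a mean for each of 4 groups. Tests were two-sided, with Benjamini-Hochberg adjustment over all 24016 probe sets within a comparison and a threshold of 0.05. Of these, 13292 probe sets carried 1 symbol, 86 several and 10638 none. Listed genes took the probe set of highest mean signal, and of each list the 4 with the smallest p for day and the 2 for receptivity could be named. For each member, the 3 genes of highest r were named. The pool number was not in the model. The members and lists were chosen with earlier results of these data known. The fit was tested on simulated data. The number of arrays limits the precision. Alternatives were other normalizations, filters, weights, a pool number block, fewer groups and leaving out each pool.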

Additional observations from a re-analysis of the deposited data

How the results depend on the processing

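The averaged day comparison called 4 of 8 member probe sets, and between 1 and 4 when 1 pool was left out. The receptive and non-receptive day comparisons called 0 and 1, and 0 to 1 and 0 to 1 without 1 pool. With array weights they called 1 and 3, and with only the 2 groups compared the non-receptive count was 0. The comparisons of receptivity and of the day changes called 0 members in every alternative run, so leaving out 1 pool also gave 0. With the pool number as a replicate block the averaged day comparison called 3, since the lead FABP5 probe set had an adjusted p of 0.0524. Deviations of pools of the same number in different groups had a mean correlation of 0.000570 over 18 pairs. Across groups, 4 of 12 pools correlated best with their own number. These pairs also set receptive against non-receptive pools, so they cannot show whether pools of day 3 and day 7 shared animals. The labels name no pairing, and the number was not taken as one.

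Of 56 member results, 17 changed sign under some alternative, none of them with an adjusted p under 0.05. With array weights, log2 values were 0.10 for the second FABP4 probe set (receptive day change), -0.041, -0.12 and -0.37 for the lead one (non-receptive day change, receptivity over both days and on day 3), -0.18 for the second FABP5 probe set (difference of day changes), and 0.012 for CD36 and 0.055 for ACAA2 (receptivity on day 3). Without 1 pool, the receptive day change ran from -0.70 to 0.54 for the second FABP4 probe set and from -1.15 to 0.69 for LPL, and the non-receptive one from -0.25 to 0.63 for the lead FABP4 probe set. The difference of day changes ran from -0.35 to 0.56 for that probe set, from -0.26 to 0.30 for the second FABP5 probe set and from -0.22 to 0.10 for ACAA2. Receptivity over both days ran from -0.086 to 0.37 for FABP4 and from -0.13 to 0.032 for ACAA2, and on day 3 from -0.32 to 0.50 for FABP4, from -0.21 to 0.22 for FABP5 and from -0.09 to 0.12 for ACAA2. On day 7 it ran from -0.98 to 0.46 for FABP3, from -0.26 to 0.61 for FABP4, from -0.01 to 0.47 for the second FABP5 probe set, from -0.75 to 0.30 for LPL and from -0.23 to 0.085 for ACAA2. The cause was not tested. Over all probe sets, the averaged day comparison called 3412, between 1861 and 3617 without 1 pool and 5611 with array weights. The receptive one called 471, between 9 and 615 without 1 pool, 155 with the replicate block, 1078 with a mean signal of at least 5, 888 with values under 3 raised to 3, 1071 with an intensity trend and robust spread, 1275 with array weights and 37 with only its 2 groups. The non-receptive one called 596, between 4 and 534 without 1 pool, 314 with the replicate block, 1208, 994 and 1136 under those same 3 settings, 3141 with array weights and 37 with only its 2 groups. The comparisons of receptivity and of the day changes called between 0 and 6 of all probe sets under every alternative run. FABP4 lay near the floor, and 3 pools per group limit the precision of every value.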
